A study of Mus musculus with 6 samples.

Results

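Carbonic anhydrases are zinc enzymes that turn carbon dioxide and water into bicarbonate and a proton, and back again. Their isoforms differ in place and speed. *Car1* and *Car2* encode the cytosolic enzymes of red cells, *Car3* a slow cytosolic enzyme abundant in liver, fat and skeletal muscle, *Car5a* the mitochondrial enzyme that supplies bicarbonate to the urea cycle and to gluconeogenesis, and *Car14* an enzyme of the plasma membrane that is present on hepatocytes. *Car4* and *Car9* are bound to the membrane, *Car9* being a well-known target of the hypoxia response, while *Car13* is cytosolic and *Car8* has lost the catalytic activity.

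The expression of these 9 genes was examined in the liver of mouse pups. The probes were all those whose symbol in the non-normalized liver table was one of the 9 names. This gave 9 probes of 6 genes out of 25697 probes of 18138 symbols, and 4 of the 9 probes, 1 each of *Car2*, *Car3*, *Car13* and *Car14*, passed the detection filter. *Car1*, *Car5a* and *Car8* had no probe under these symbols and were not analysed here. The genes were selected on a measured value, the fall of *Car3* in hSRY-ON on these same arrays, so the differences of its members between the groups are given as a description.

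Total RNA came from the livers of male pups of the FVB/N background, FVB in the labels, at postnatal day 6, with 3 pups per group, and was hybridised to Illumina MouseRef-8 BeadChips. hSRY-ON pups expressed FLAG-tagged human SRY together with EGFP from the ubiquitous CAG promoter, after a DsRed2 cassette of the Signalox-hSRY transgene had been cut out at the single-cell stage by Cre carried over from oocytes of *Ddx4-Cre* mothers. The hSRY-ON pups chosen for arrays did not carry *Ddx4-Cre* themselves. The paper reports that hSRY-ON pups grew more slowly than littermates, lacked milk in the stomach and had fatty livers. Some had died by this age, so the arrays come from pups still alive. The part of growth, feeding and survival in the differences below was not tested. hSRY-OFF pups, per the methods, carried the same single-copy transgene at the H11 locus of chromosome 11 without recombination. The labels give no genotype beyond hSRY-OFF, and the study also uses the word control for littermates that lack the transgene, so the genotype of the hSRY-OFF pups rests on that definition. The model is thus activation throughout the body from the earliest stage, in whole liver rather than in hepatocytes alone. In such bulk samples, fewer cells of a type and less RNA per cell cannot be told apart.

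Each array detected between 10318 and 10762 probes at a detection p under 0.01. Array pairs correlated at 0.987 to 0.992 within hSRY-OFF, 0.965 to 0.982 within hSRY-ON and 0.912 to 0.939 between the groups. Of 10734 probes tested with limma, 3554 passed an adjusted p of 0.05, which is 33.1% of them, with 1700 (15.8%) higher and 1854 (17.3%) lower in hSRY-ON. This count fell to 1821 without hSRY-OFF replicate 1 and to 1959 without hSRY-OFF replicate 2. Of 13 hepatocyte marker genes with a probe, 12 were detected on at least 1 array, and *Tat*, a tyrosine-catabolising enzyme, was not detected on any.

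*Car3* was bright in every hSRY-OFF liver and at background in every hSRY-ON liver. Its single probe, for a gene at chr3:14863538-14872381 (GRCm38.p6), had deposited intensities of 3458, 3167 and 5150 in hSRY-OFF replicates 1, 2 and 3, and of 136, 125 and 130.1 in the hSRY-ON replicates. The detection p in hSRY-ON was 0.851, 0.97 and 0.526, so that the probe lay among the negative control beads. On the normalised log2 scale, the hSRY-OFF values were 11.54, 11.39 and 12.42, with a mean of 11.78 ± 0.56 (SD, n = 3). Since no hSRY-ON array detected the probe, only a bound on the change can be given, which is a fall of *Car3* to a level at least 67.2-fold lower after background correction. The bound depends on that correction, since the deposited means of 3925 and 130.1 stand in a ratio of 30.2, and the fold without background correction was 27.7. The fitted difference of -7.26 ± 0.26 (SE) on the log2 scale, or -6.07 with the hSRY-ON arrays set at their detection floor, was the lowest of all 10734 tested probes.

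*Car14*, the membrane-bound hepatocyte isoform, was also lower in hSRY-ON but remained detected in every liver. Deposited intensities at its probe (gene at chr3:95897768-95905117) were 1607, 1749 and 1531 in hSRY-OFF and 562, 568 and 573 in hSRY-ON. The normalised log2 values were 10.39, 10.50 and 10.67 in hSRY-OFF against 8.58, 8.83 and 9.01 in hSRY-ON. The 2 groups did not overlap, as was the case, in the direction lower in hSRY-ON, for 24.6% of all tested probes, and the difference of -1.71 ± 0.15 (SE, 95% confidence interval -2.07 to -1.35) is a 3.27-fold fall. In the order of all tested probes from the lowest difference upwards, *Car14* stood at place 231.

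*Car2*, the fast cytosolic isoform of red cells, was bright in all 6 livers, with a difference in the other direction that did not pass the threshold. At the probe that was detected (gene at chr3:14886269-14900770), deposited intensities were 4581, 3285 and 4947 in hSRY-OFF and 6744, 5665 and 5472 in hSRY-ON. Normalised log2 values were 11.97, 11.46 and 12.35 in hSRY-OFF and 12.65, 12.51 and 12.65 in hSRY-ON. The groups did not overlap, which held in the direction higher in hSRY-ON for 25.4% of all tested probes. The difference was 0.68 ± 0.22 (SE, 95% confidence interval 0.16 to 1.19), or 1.60-fold. In the limma fit over all tested probes its adjusted p was 0.0502, just outside the threshold, and leaving out 1 array at a time moved the difference between 0.44, without hSRY-OFF replicate 2, and 0.88, without hSRY-OFF replicate 3. A second *Car2* probe was not detected on any array, with deposited intensities of 140 to 173, and so gave no measure of the gene.

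*Car13*, a cytosolic isoform, was dim and did not separate the groups. Deposited intensities ran from 222.5 to 271 over the 6 livers, and the normalised log2 values were 6.79, 6.36 and 7.08 in hSRY-OFF against 6.98, 6.85 and 7.04 in hSRY-ON. The values of the 2 groups overlapped, with a difference of 0.22 ± 0.19 (SE, 95% confidence interval -0.23 to 0.66).

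Thus 2 of the 4 tested probes passed the threshold, both lower in hSRY-ON, where 33.1% of all tested probes passed in either direction and 17.3% in this one. Since the members were picked with this contrast known, nothing is read from that count.

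**Figure D1:**
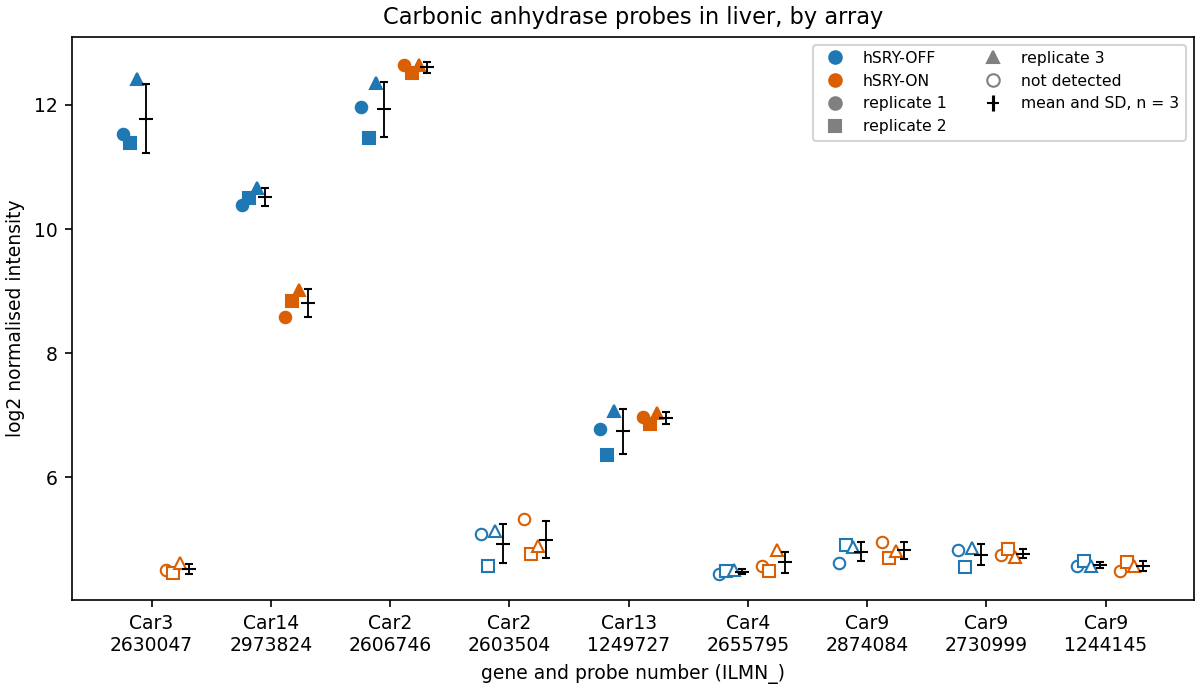
Normalised log2 intensity (vertical axis) of the 9 carbonic anhydrase probes (horizontal axis, gene and probe number) on each of the 6 arrays, with hSRY-OFF in blue, hSRY-ON in orange, a marker shape per replicate, open markers for undetected probes and bars for the mean and SD of 3 arrays. *Car3* dropped from 11.39 or more in hSRY-OFF to 4.61 or less in hSRY-ON, *Car14* from 10.39 or more to 9.01 or less, and *Car2* and *Car13* differed by 0.68 and 0.22 between the groups. Levels of different probes are not comparable with each other.

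**Figure D2:**
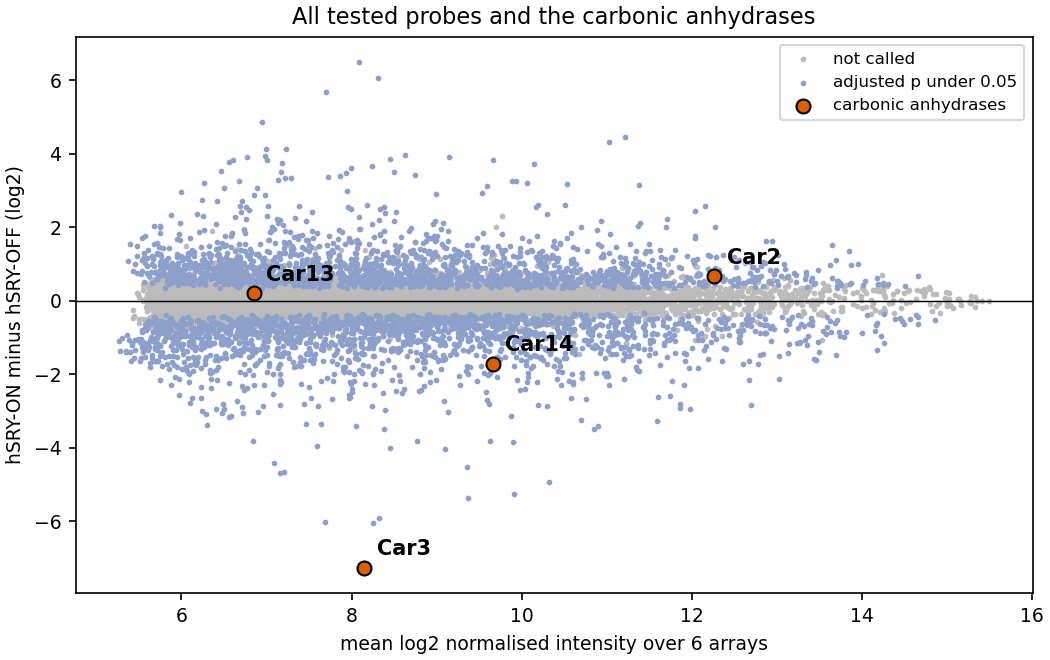
Difference between hSRY-ON and hSRY-OFF (log2, vertical axis) against the mean log2 normalised intensity over 6 arrays (horizontal axis) for all 10734 tested probes, with the 4 tested carbonic anhydrase probes marked. *Car3*, at a fitted -7.26 with no hSRY-ON array detecting it, is the lowest point, *Car14* lies at -1.71, and *Car13* and *Car2* lie at 0.22 and 0.68.

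*Car4*, the isoform anchored to the cell surface, was not detected on any array, with intensities of 125 to 141 at its probe. *Car9* was likewise undetected at all 3 of its probes, with intensities of 128 to 160. For both genes this limits the signal to below the detection floor of each array, and no fold was computed. The rest of the family gave the same picture. *Car5b*, *Car6*, *Car7*, *Car11*, *Car12* and *Car15*, outside the 9 genes, had 8 probes between them and none was detected on any array, while *Car10* had no probe. *Car2*, *Car3*, *Car13* and *Car14* were therefore the carbonic anhydrases detected among those with a probe.

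The sequences upstream of the start were read from the RefSeq promoter table (GRCm38.p6), which had entries for *Car4*, *Car5a*, *Car9* and *Car14*, 4 of the 9 genes. The 250 bases before each start were searched on both strands for 3 short motifs. These were AACAAT, a core bound by SRY and SOX proteins, ACGTG, the core bound by hypoxia-inducible factors, and AGATAA, a core bound by GATA factors. Only these exact letters were searched, so sites that differ from them were not counted. No exact AACAAT or AGATAA was found in any of the 4 windows, against 9.42% and 9.99% of all 32851 windows of this length. ACGTG, present in 16.6% of all windows, occurred once in *Car9* and once in *Car14*. The *Car9* window is shown because this gene, a known hypoxia target, stayed at background while most hypoxia response probes tested were higher in hSRY-ON, and the stretch next to the *Car14* start because it is the promoter with an entry whose gene was measured. Both are written 5′ to 3′ on the strand of the gene, and the capitals mark CACGT, which is ACGTG read on the opposite strand. The *Car9* window lies at chr4:43506776-43507025 (plus strand) and the *Car14* stretch at chr3:95904686-95904715 (minus strand).
Car9: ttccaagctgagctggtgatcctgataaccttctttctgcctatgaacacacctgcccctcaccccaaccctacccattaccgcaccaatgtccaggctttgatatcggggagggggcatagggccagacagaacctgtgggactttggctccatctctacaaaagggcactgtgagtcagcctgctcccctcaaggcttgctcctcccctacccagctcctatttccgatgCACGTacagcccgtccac
Car14: agcccaggcaccacccccctcctCACGTac
The match began 18 bases before the start in *Car9* and 7 bases before it in *Car14*. For *Car14* the start used by the promoter table lies inside the span that RefSeq gives for the gene, which reaches further upstream, whereas the *Car9* window ends where its gene begins. A match of letters is a description and no evidence of binding.

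*Car13*, *Car1*, *Car3* and *Car2* lie next to each other on chromosome 3 within 259044 bases, and the measured members of the cluster had unlike differences. *Car3* and *Car2*, separated by 13887 bases, had log2 differences of -6.07, taking the detection floor for hSRY-ON, and 0.68, which did not pass the threshold, and *Car13*, at the other end, stood at 0.22. The gap between *Car1* and *Car3* is 55172 bases and that between *Car13* and *Car1* is 103211 bases. *E2f5*, a transcription factor gene beside *Car13*, had a difference of 0.35 ± 0.25 (SE, adjusted p = 0.315 by limma) at the probe that was tested. The neighbours *Rbis*, A930001A20Rik and *Gm7132*, and *Gm5843*, *Gm16399* and *Gm41999* inside the cluster, had no probe. *Car14* lies on the same chromosome, far from the cluster.

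Within the hSRY-OFF group the cluster genes varied more than most. The SD over the 3 hSRY-OFF arrays was 0.56 for *Car3*, 0.45 for *Car2* and 0.36 for *Car13* on the log2 scale, above that of 98.7%, 96.6% and 92.8% of the tested probes. *Car14*, at 0.14, was at the median of all tested probes, which was 0.14 too. In hSRY-ON the SDs of *Car2*, *Car3* and *Car13* were 0.08, 0.08 and 0.10, below the median of 0.21, the *Car3* value being that of a probe at background. In all 3 cluster genes, hSRY-OFF replicate 2 was the lowest and replicate 3 the highest of the hSRY-OFF arrays after normalisation, an order shared by 19.4% of all tested probes. For *Car13* the deposited intensities had another order, with replicate 1 the highest, so its order rests on the normalisation. Genes outside the cluster shared these traits. The red-cell list examined below had the same order, with median deviations of -0.50, -0.82 and 0.11 on hSRY-OFF replicates 1, 2 and 3. *Slc4a1*, *Hbb-b1* and *Alas2* of that list had hSRY-OFF SDs of 0.57, 0.53 and 0.31.

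Set side by side, the mean difference of the hepatocyte isoforms *Car3* and *Car14* lay 5.16 log2 units below that of the red-cell isoform *Car2* (contrast of differences -5.16, with a pooled SD between arrays of 0.20). With *Car3* held at its detection floor the contrast was -4.57. It rests on 3 probes, of which *Car3*, the value that chose the members, supplies most, and is given as a description. In hSRY-ON the *Car3* probe was at background, so the SD does not measure the spread of its expression there.

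By Pearson correlation over the 6 arrays, the tested genes whose pattern was most like that of *Car3* were *Abat* (r = 0.9996), which breaks down GABA, *Afmid* (r = 0.9992), an enzyme of tryptophan breakdown, *Ces1f* (r = 0.9992), a liver carboxylesterase, *Kcp* (r = 0.9987), a secreted modulator of BMP signalling, and *Vnn3* (r = 0.998), of the vanin family. The 6 points form 2 groups, so that any fall large beside the spread within the groups gives a high r. Of 10733 probes, 724 reached an r of 0.95. Their sizes varied widely. *Ces1f*, undetected in hSRY-ON, was at least 13.8-fold lower, whereas *Kcp* fell by 0.49 on the log2 scale. *Abat* and *Vnn3* fell by 1.48 and 1.51, and the mean log2 value of *Afmid* was 9.80 in hSRY-OFF and 7.80 in hSRY-ON.

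Bicarbonate and protons leave or enter cells through transporters, and these were called in both directions. Of 24 listed transporter and partner genes, 20 had a probe and 17 probes were tested. Of these, 5 were called higher and 5 lower, 58.8% of the 17 against 33.1% of all tested probes, and the median difference was -0.02 beside 0.02 for all. Of the anion exchangers, *Slc26a1*, a sulfate and bicarbonate exchanger of the hepatocyte, had log2 values of 9.11, 9.13 and 9.04 in hSRY-OFF and 6.32, 5.81 and 7.18 in hSRY-ON, and fell by 2.66 ± 0.32 (SE, adjusted p = 0.00118 by limma). *Slc26a6*, another exchanger of this family, was not detected in hSRY-ON and was at least 2.04-fold lower (adjusted p = 0.00636).

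*Slc4a3* and *Slc4a8*, a chloride-bicarbonate exchanger and a sodium-coupled bicarbonate transporter, instead rose at their tested probes. *Slc4a8* was at least 2.31-fold and at least 1.92-fold higher at its 2 tested probes (adjusted p = 0.0236 and 0.0047 by limma). *Slc4a3* was at least 1.28-fold higher at one probe (adjusted p = 0.00114 by limma) and 1.02 higher on the log2 scale at another (adjusted p = 0.0158). Signal above the floor at these probes came from the 3 hSRY-ON arrays, plus 1 hSRY-OFF array for the last. The filter thus took them in through the group where they were bright, and a call of lower was hardly possible for them. *Slc9a3r1*, a scaffold protein of transporters, fell by 1.32 ± 0.26 (SE, adjusted p = 0.00822). *Slc9a8*, a sodium-proton exchanger, fell at 2 of its 4 tested probes, by 0.55 and 0.73. *Bsg*, the chaperone of lactate and proton carriers, rose by 0.89 at one probe and had 0.54 at the other, which did not pass (adjusted p = 0.135). *Slc4a2*, the widespread anion exchanger, had a difference of -0.08 (adjusted p = 0.628). The *Slc26a6* probe, called lower, entered likewise through the hSRY-OFF arrays. With detection required on all 6 arrays, which leaves out these *Slc4a8*, *Slc4a3* and *Slc26a6* probes, 1 of 12 tested probes was higher and 4 were lower. Of all 9206 probes passing that filter, 1506 were higher and 1574 lower. The transporter count of 10 fell to 5 without hSRY-OFF replicate 2 or hSRY-ON replicate 1 and to 6 without hSRY-OFF replicate 1.

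Among enzymes that fix bicarbonate and those of the urea cycle, carboxylase genes were among those that fell, and the urea cycle gave a mixed picture. Of 18 listed genes, 15 had a probe, and of 18 tested probes 1 was called higher and 7 lower, or 44.4% against 33.1% of all tested probes, with a median difference of -0.25. *Pcx*, the mitochondrial pyruvate carboxylase, had log2 values of 10.59, 10.52 and 10.50 in hSRY-OFF and 9.71, 9.79 and 9.36 in hSRY-ON, a fall of 0.91 ± 0.14 (SE, adjusted p = 0.00369 by limma). *Pcca*, a subunit of propionyl-CoA carboxylase, fell by 1.06 and 0.82 at its 2 probes (adjusted p = 0.0036 and 0.00551 by limma). *Pccb*, the other subunit, had a difference of 0.095 at its tested probe, which did not pass (adjusted p = 0.725 by limma). *Hlcs*, which attaches biotin to carboxylases, fell by 0.82 ± 0.19 (SE, adjusted p = 0.0148 by limma).

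In the urea cycle, *Nags*, which makes the activator of carbamoyl phosphate synthetase, fell by 0.69 to 0.76 at 3 probes (adjusted p = 0.00872 to 0.0196 by limma). *Cps1*, the synthetase that takes up bicarbonate, had differences of 0.45 and 0.49 at its 2 probes, neither of which passed (adjusted p = 0.127 and 0.123). *Arg1*, the arginase that releases urea, rose by 1.05 ± 0.17 (SE, adjusted p = 0.00413). *Otc* was not detected at either probe. The list's count of 8 became 5 without hSRY-OFF replicate 1 or replicate 2. There the count over all tested probes fell from 3554 to 1821 and 1959.

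Red-cell genes, as a list, lay to the same side as *Car2*, though the count depended on single arrays. Of 34 tested probes, 12 were called higher and 0 lower, where 15.8% of all tested probes were called higher, and the median difference was 0.70. *Rhag*, the Rh-associated membrane glycoprotein, rose by 1.33 to 1.38 at 3 probes (adjusted p = 0.0135 to 0.017 by limma). *Alas2*, the first enzyme of haem synthesis in red-cell precursors, had log2 values of 12.07, 12.08 and 12.62 in hSRY-OFF against 13.45, 13.01 and 13.09 in hSRY-ON, a rise of 0.93 ± 0.20 (SE, adjusted p = 0.0117). *Tspo2* rose by 1.54, or 1.29 with undetected hSRY-OFF arrays at their floor, *Xk* by 0.66, *Ermap* by 0.86, *Gata1*, the erythroid transcription factor, by 0.90 at one probe, *Fech*, which inserts iron into haem, by 0.84 and 0.76, and *Slc25a37*, a mitochondrial iron carrier, by 0.81.

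*Slc4a1*, the red-cell anion exchanger that works with the carbonic anhydrases, had log2 values of 13.80, 13.37 and 14.50 in hSRY-OFF and 14.62, 14.32 and 14.83 in hSRY-ON, which overlapped (0.71 ± 0.29, adjusted p = 0.0964 by limma). *Hbb-b1*, a beta globin, had a difference of 0.47 (adjusted p = 0.27), and the *Hba-a1* probe sat at the top of the scale on every array and could not show a difference. The count of 12 fell to 1 without hSRY-OFF replicate 1, to 3 without hSRY-OFF replicate 2 and to 4 without hSRY-ON replicate 1, and rose to 20 without hSRY-OFF replicate 3. In the same order, 1821, 1959, 2519 and 2576 of all tested probes were called, against 3554 with every array.

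Array by array, the red-cell list was lowest where *Car2* was lowest. As deviations from the mean of 6 arrays on the log2 scale, the medians of its 34 probes were -0.50, -0.82 and 0.11 in hSRY-OFF and 0.53, 0.12 and 0.53 in hSRY-ON. hSRY-OFF replicate 2 was thus lowest for both, and replicate 3 stood with the hSRY-ON arrays. The summed normalised intensity of the red-cell markers was 64134 to 83229 in hSRY-OFF and 80663 to 93626 in hSRY-ON, with 7 of 8 marker genes detected and *Epb42* not. The *Hba-a1* probe makes up 46248 of each sum, and without it the sums were 17886 to 36981 and 34415 to 47378. Its part in the *Car2* difference was not tested.

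**Figure D3:**
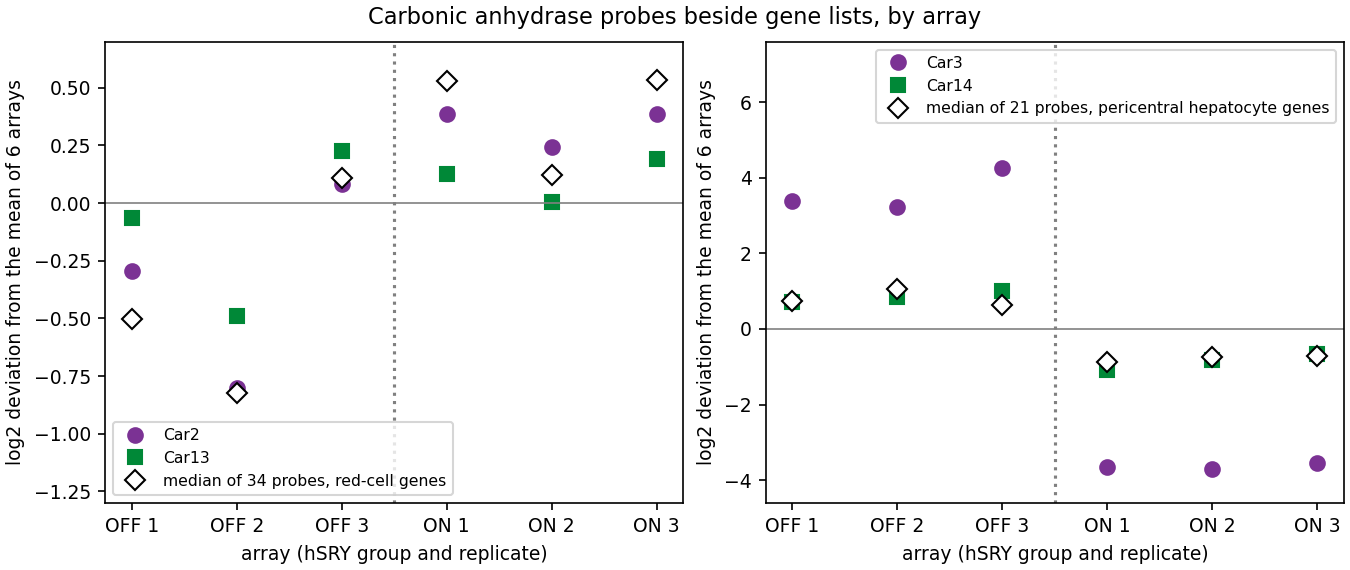
Log2 deviation from the mean of 6 arrays (vertical axis) on each array (horizontal axis). Left, *Car2*, *Car13* and the median of 34 red-cell gene probes, which was -0.82 on hSRY-OFF replicate 2 and 0.53 on hSRY-ON replicates 1 and 3; right, *Car3*, *Car14* and the median of 21 pericentral gene probes, which was 0.64 or more in hSRY-OFF and -0.71 or less in hSRY-ON.

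In the liver lobule, *Car3* is known as a gene of hepatocytes near the central vein, and other pericentral genes were mostly lower in hSRY-ON. Of 21 tested probes of 18 listed genes, 16 were lower and 4 higher, 95.2% against 33.1% of all, with a median of -1.56, or -1.39 with undetected arrays at their floor. Probes such as those of *Cyp1a2*, *Rhbg* and *Lgr5* entered the test through the hSRY-OFF arrays, where they were bright. Among the 12 probes detected on all 6 arrays 7 were lower and 4 higher. Of all 9206 probes passing that filter, 1574 were lower and 1506 higher. *Cyp1a2*, a drug-metabolising cytochrome, fell by 5.91 and 6.05 at its 2 probes, or by 5.56 and 5.48 at the floor of the undetected hSRY-ON arrays. *Cyp2e1*, the ethanol-oxidising cytochrome, fell by 2.84 ± 0.31 (SE, adjusted p = 0.000893 by limma). *Rhbg*, an ammonium transporter, was at least 4.83-fold lower (adjusted p = 6.79e-05).

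*Axin2* and *Lgr5*, both Wnt pathway genes, fell as well, *Axin2* by 1.70 ± 0.18 (SE, adjusted p = 0.000758 by limma) and *Lgr5*, undetected in hSRY-ON, at least 1.43-fold (adjusted p = 0.00198). *Gulo*, of vitamin C synthesis, fell by 1.31, and *Slco1b2*, an organic anion transporter, by 1.93 and 1.95. The genes that went the other way, named after their values were seen, were *Oat* (1.23 ± 0.30 SE, adjusted p = 0.0185), which degrades ornithine, and *Cyp27a1* (1.15 to 1.42 at 3 probes), of bile acid synthesis. *Glul*, the glutamine synthetase next to the central vein, was not detected. The pericentral count of 20 of 21 tested probes became 12 of 17 without hSRY-OFF replicate 1 or replicate 2 and 13 of 17 without hSRY-OFF replicate 3. Probes detected only on the hSRY-OFF arrays left the test there, since the filter still asked for 3 detections. Without hSRY-OFF replicates 1, 2 and 3 in turn, the calls over all probes were 1821 of 10457, 1959 of 10445 and 2576 of 10437.

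Periportal genes gave a smaller share of calls. Of 19 tested probes, 2 were higher and 5 lower, 36.8% in all against 33.1% of all tested probes, with a median of 0.36. Without hSRY-OFF replicate 3 the calls were 4 higher and 3 lower of 18 tested probes. The higher ones were *Apoa4* and *Arg1*, and the lower ones were probes of *Igf1*, *Gls2* and *Ctsc*. *Arg1*, *Asl*, *Ass1* and *Cps1* belong to both this list and that of the urea cycle, so the lists are not separate. The probes of these genes had differences of 0.40 to 1.05. Of 14 tested probes of general hepatocyte markers, 1 was higher and 5 were lower, 42.9% against 33.1% of all tested probes, with a median of -0.17. Their summed intensity was 238720 to 243950 in hSRY-OFF and 229290 to 238930 in hSRY-ON, much of it from probes near the top of the scale such as those of *Ahsg*, *Trf* and *Apoa1*.

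*Car3* is also abundant in fat and skeletal muscle, and most markers of both were at background. *Adipoq*, *Cfd*, *Fabp4*, *Lep*, *Plin1* and *Retn* of the adipocyte list were not detected on any array, and the summed intensity of its 8 genes was 223 to 298 in hSRY-OFF and 343 to 616 in hSRY-ON. *Plin4*, a lipid droplet coat protein, was the one adipocyte probe tested, with a rise of at least 4.89-fold. The *Plin4* probe passed the filter through the 3 hSRY-ON arrays alone. It could hardly have been called lower, so its direction is not set against that of *Car3*. *Thrsp*, which is also expressed in liver, was detected on 2 hSRY-OFF arrays and no hSRY-ON array and was not tested. Its mean log2 values were 5.961 in hSRY-OFF and 5.575 in hSRY-ON, and the groups overlapped. Of 10 skeletal muscle genes, *Acta1*, *Ckm*, *Mb*, *Myh1*, *Myh4*, *Myl1*, *Tnnc2* and *Tnnt3* were not detected. *Mylpf*, a myosin light chain, was detected on all 6 arrays, with deposited intensities of 201 to 258 and a difference of 0.46 (adjusted p = 0.161 by limma), *Actn3* was detected at 1 probe on 1 hSRY-ON array, and the sums were 427 to 481 in hSRY-OFF and 477 to 524 in hSRY-ON. The part of either tissue in the *Car3* difference was not tested.

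Most hypoxia response probes were higher in hSRY-ON while *Car9* and *Car12*, the carbonic anhydrases of that response, stayed undetected. *Adm*, *Bnip3* and *Ero1a* of the same list were not detected on any array either. Of 15 tested probes, from 22 in all, 12 were higher and 0 lower, where 15.8% of all tested probes were higher, and the median was 1.17. *Hilpda*, which blocks lipid droplet breakdown, rose by 3.28 ± 0.18 (SE, adjusted p = 7.94e-05 by limma), and *Slc2a1*, the glucose transporter of the cell membrane, by 2.61 ± 0.27 (adjusted p = 0.000722). *Ndrg1*, *Egln3*, *Vegfa*, *Pdk1* and *Egln1* rose by 0.77 to 2.49. *Ldha*, lactate dehydrogenase, had a difference of 0.20, which did not pass (adjusted p = 0.201). The count of 12 fell to 7 without hSRY-OFF replicate 1, where the count over all tested probes fell from 3554 to 1821.

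**Figure D4:**
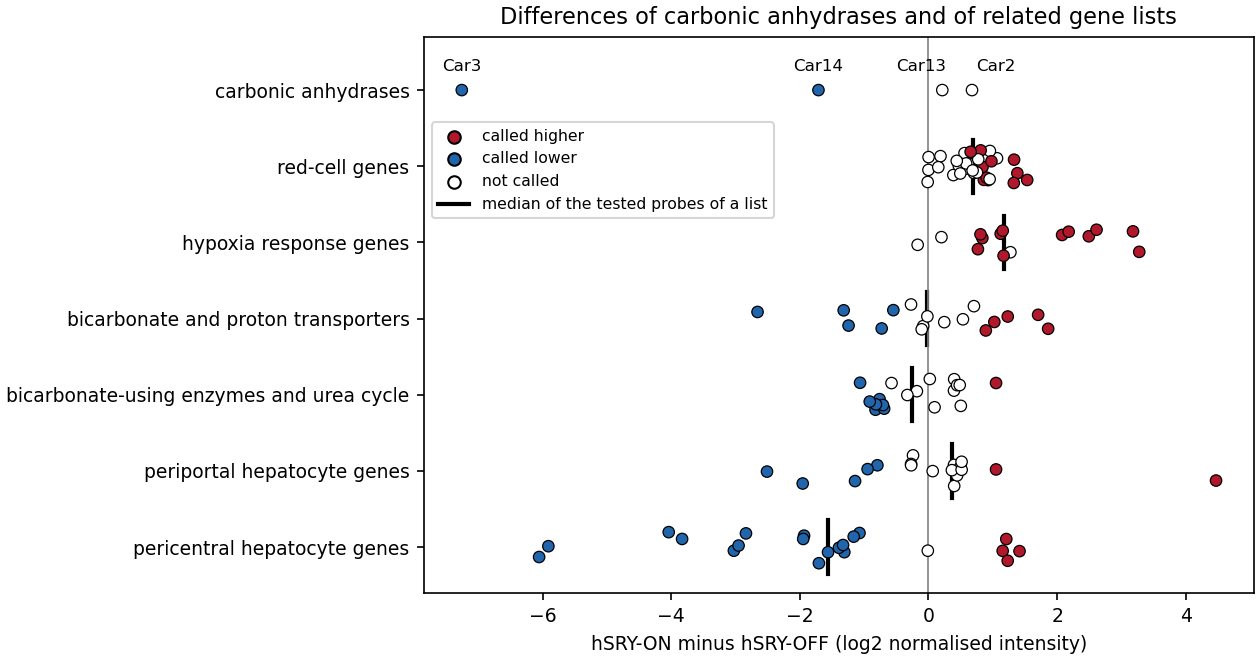
Difference between hSRY-ON and hSRY-OFF (log2 normalised intensity, horizontal axis) of each tested probe, by gene list (vertical axis), coloured by whether it was called higher, called lower or not called at an adjusted p of 0.05. Black bars mark list medians, -1.56 for pericentral genes, 0.70 for red-cell genes and 1.17 for hypoxia genes; none is drawn for the carbonic anhydrases, which were chosen with this contrast known.

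Other cells of the liver gave lists that moved in different directions. Of 10 tested macrophage probes, 1 was higher and 4 lower, with a median of -0.47, and of 8 endothelial probes, 4 were higher and 1 lower, with a median of 0.44, where 15.8% of all tested probes were higher and 17.3% lower. None of 10 neutrophil probes was called. The 1 biliary probe tested was not called either. The part of any of these lists in the carbonic anhydrase differences was not tested.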

How the data were processed

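Liver total RNA of 3 hSRY-OFF and 3 hSRY-ON pups was measured on Illumina BeadChips, with groups and numbering as the labels give them. The deposited table gave, per probe and array, a mean intensity on a linear scale that the authors had neither background-corrected nor normalised (lowest value 107.7), and a deposited detection p-value against negative control beads. Every value column could be tied to a sample (0 were not). The submitters' processing notes name limma and the paper names TCC, a count method that was not applied to intensities. Scanner settings, slide and scan date are not given in the sources used here.

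Background was removed with normexp from the detection p-values (nec, offset 16), followed by quantile normalisation and log2, in limma 3.58.1 under R 4.3.3. The 10734 probes that at least 3 of the 6 arrays detected, at a detection p under 0.01, were tested with lmFit and eBayes without covariates. P-values were two-sided and adjusted by Benjamini-Hochberg over all tested probes, with a threshold of 0.05. For a probe undetected throughout a group, the brighter group's mean was set against the mean, over the dimmer group's arrays, of the higher of the lowest detected signal and the probe's own, and is written "at least N-fold". The offset shrinks differences of dim probes, and the number of arrays limits the precision. Different probes of a gene were kept apart. Of 18138 symbols, 14307 were current in RefSeq GRCm38.p6, another 2927 were former names of 1 gene, and 904 had no match.

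The members, the gene lists and the alternatives were chosen with earlier results of these data known. Named were all members, up to 8 called genes per list by smallest p, *Slc4a1*, *Cps1*, *Pcx*, *Glul*, *Hbb-b1* and *Alas2* whatever their values, the 5 genes most like *Car3*, and the neighbours of the chromosome 3 cluster, and other genes named were chosen after their values were seen. One called pericentral gene is not reported here. The fit was also run on simulated data of this comparison in 3 sets (10818 to 10986 probes tested). It called 51.4% of 2-fold and 93.1% of 4-fold changes, 0 with the wrong sign. Far fewer probes were changed in these sets than were called in the data, which makes the adjusted p stricter there. The shares are thus not the power of the real comparison. Alternatives were other background corrections and offsets, median scaling, other detection filters, limma with a trend or array weights, the replicate number as a block, and leaving out each array.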

Additional observations from a re-analysis of the deposited data

How the results depend on the processing

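Under the 16 alternatives the difference ran from -1.82 to -1.47 for *Car14* and from 0.03 to 0.38 for *Car13*. For *Car3* it was -7.34 to -4.79 under the 12 that tested it, a description of the value that chose the members, against a probe undetected in hSRY-ON. Without an hSRY-OFF array, or with detection required on all 6 arrays, too few arrays detected *Car3* for a test, and its difference without one hSRY-OFF array was -7.41 to -6.96. *Car2* stayed higher in all and passed in 8 of 16 (adjusted p 0.022 to 0.121 by limma). The contrast of *Car3* and *Car14* with *Car2* was -4.40 with normexp at offset 50 and no control information, -3.79 without background correction and -4.47 with offset 50. In these settings, in the same order, *Car3* moved from -7.26 to -5.88, -4.79 and -5.96. *Car14* was -1.60, -1.47 and -1.64 and *Car2* was 0.67, 0.66 and 0.67, so the contrast moved mostly with *Car3*. With detection on all 6 arrays the calls were 5 for transporters (1 higher, 4 lower) and 11 for pericentral genes (4 higher, 7 lower), of 12 tested probes in each. Over all probes that filter gave 3080 calls of 9206. With array weights the calls were 21 for red-cell and 11 for periportal genes, while those over all tested probes rose from 3554 to 4799. The stricter filter tests fewer probes, and the cause of the moves with array weights was not tested.

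Leaving out each array gave 1821 to 3947 called probes in all, 1 to 2 of carbonic anhydrases and 5 to 9 of transporters. The calls were 5 to 10 for bicarbonate-using and urea cycle enzymes and 1 to 20 for red-cell genes. For pericentral, periportal and hypoxia genes they were 12 to 20, 5 to 8 and 7 to 12. The contrast, set mostly by *Car3*, ran from -5.26 to -5.00 as a description. The balance of higher and lower calls turned for periportal genes (2 and 5, against 4 and 3 without hSRY-OFF replicate 3). For transporters it went from 5 and 5 to 4 and 2 without hSRY-OFF replicate 1 and to 2 and 5 without hSRY-ON replicate 3. The filter still asked for 3 detections. A probe detected on just the 3 arrays of a group therefore dropped out when any of them was removed. Tested transporter probes went from 17 to 16 without hSRY-OFF replicate 1 and to 14 without hSRY-ON replicate 3. Tested periportal probes went from 19 to 18. The filter thus set part of these counts.

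With the replicate number as a block, 3210 probes were called and *Car2* passed (adjusted p = 0.0405), while the calls of *Car3*, *Car13* and *Car14* did not change. Same-numbered arrays deviated together with correlations of 0.02, 0.10 and 0.05, and not every array correlated best with its own number, so the numbers were not taken to pair the samples. In the simulation, where far fewer probes changed than were called in these data, 51.4% of 2-fold changes were called at 3 arrays per group.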
